A study of Rattus norvegicus with 34 samples.

Results

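The genes followed here are 9 that are read as marks of p53 activity, growth arrest and cellular senescence: Cdkn1a, Mdm2, Ccng1, Btg2, Bax, Gadd45a, Gadd45b, Ccnd1 and Rgn. They were chosen by gene symbol, and each gene is represented by the probe set, among those annotated to it alone, with the highest mean signal in the strain. Of the 9 genes, 7 have such a probe set, among 11943 genes represented in F344 and 11984 in Brown Norway rats. Bax is annotated only on a probe set shared with LOC681314, and none was named for Btg2 in the annotation used, so no value is given for either. The 7 genes have 12 probe sets in all.

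Liver RNA of 34 male rats of 2 inbred strains was measured on Affymetrix Rat 230 2.0 arrays, 1 array for each animal, in a study of foreign compound metabolism in old age. The F344 rats were 6, 11, 18 or 24 months old, 4 at each age and none of them dosed, and their supplier kept them until 1 week before necropsy. Brown Norway rats, kept 1 to a cage, were 4, 12 or 24 months old. At each of these ages 3 rats were given toluene, an organic solvent, at 1 g/kg in corn oil by gavage and were killed 4 h later, and 3 were controls whose labels say that they had no treatment. The labels do not say that the controls received corn oil, so toluene, its vehicle and the gavage cannot be told apart. No genetic alteration is given for either strain.

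The transcription factor p53 is held at a low level by Mdm2, a ubiquitin ligase whose own gene p53 switches on, so that the pair form a feedback loop. When DNA damage or another stress frees p53, it induces Cdkn1a, the inhibitor p21 that halts cyclin-dependent kinases, Ccng1, a cyclin that recruits a phosphatase to Mdm2, the antiproliferative gene Btg2, the death effector Bax and the stress sensor Gadd45a. Several of these genes also answer to signals that do not need p53, and Gadd45b in liver is best known as an early response gene to growth factors, cytokines and nuclear receptor activators. Ccnd1, cyclin D1, drives hepatocytes out of G1, and Rgn, a calcium-binding lactonase of ascorbate synthesis, is named senescence marker protein because it declines in the ageing rat liver.

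Promoters are shown for the 3 members in which a p53 half-site was found and for Mdm2, since these 4 are the p53 targets among the measured genes. Each window runs from 250 bases before to 50 after the gene's start, 5′ to 3′ on the gene's strand, as RefSeq gives it for the assembly GRCr8. Capitals mark the half-site. The window of Cdkn1a is chr20:7150682-7150981 on the + strand, with the half-site starting 201 bases upstream. That of Ccng1 is chr10:25684827-25685126 on the - strand, with the half-site 232 bases upstream. Gadd45a lies at chr4:97486750-97487049 on the - strand, with the half-site 48 bases upstream. The window of Mdm2, at chr7:55200742-55201041 on the - strand, holds none.
Cdkn1a: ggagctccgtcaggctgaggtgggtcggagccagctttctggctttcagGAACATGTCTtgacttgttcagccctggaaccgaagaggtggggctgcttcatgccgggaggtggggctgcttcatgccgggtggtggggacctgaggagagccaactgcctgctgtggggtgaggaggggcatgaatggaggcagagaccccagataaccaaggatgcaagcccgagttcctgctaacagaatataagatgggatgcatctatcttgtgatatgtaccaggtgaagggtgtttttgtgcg
Ccng1: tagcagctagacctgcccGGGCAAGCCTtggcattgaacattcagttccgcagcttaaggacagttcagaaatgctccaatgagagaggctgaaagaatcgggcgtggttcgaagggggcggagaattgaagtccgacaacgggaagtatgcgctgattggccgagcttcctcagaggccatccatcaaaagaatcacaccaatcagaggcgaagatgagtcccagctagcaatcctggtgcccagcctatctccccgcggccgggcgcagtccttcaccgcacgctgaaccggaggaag
Gadd45a: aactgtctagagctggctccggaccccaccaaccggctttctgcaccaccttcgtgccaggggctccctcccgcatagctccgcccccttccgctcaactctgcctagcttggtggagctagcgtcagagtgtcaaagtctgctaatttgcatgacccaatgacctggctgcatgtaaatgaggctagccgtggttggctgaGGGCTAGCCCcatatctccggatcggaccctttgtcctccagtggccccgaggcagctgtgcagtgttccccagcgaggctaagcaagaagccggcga
Mdm2: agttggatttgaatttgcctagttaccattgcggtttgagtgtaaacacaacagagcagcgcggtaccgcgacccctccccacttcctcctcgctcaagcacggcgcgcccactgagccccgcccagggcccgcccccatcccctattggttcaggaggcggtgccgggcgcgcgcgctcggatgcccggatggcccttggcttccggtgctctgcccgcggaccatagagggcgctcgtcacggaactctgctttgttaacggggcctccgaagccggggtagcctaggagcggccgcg
The motif was the p53 half-site consensus, which reads the same on both strands, and 3 of the 7 members with a listed promoter held it, against 7.98% of all 33469 listed promoters. The E-box CACGTG was found in the window of Gadd45b (6.42% of all promoters) and the cyclic AMP response element TGACGTCA in that of Btg2 (1.83%). The AP-1 site TGANTCA, present in 7.33% of all promoters, was in none of the 7. All of these motifs read the same on both strands, and in the windows shown only the half-site occurs. Bases outside these windows, introns among them, were not searched, so a window without the half-site does not mean a gene without one. Such matches describe letters only, and no binding was measured.

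Signals are linear, and those under a floor of 32 were raised to 32 ahead of the log2 step. Tested genes are those above the floor on at least 4 F344 or 3 Brown Norway arrays, and the threshold for passing was an adjusted p of 0.05. That left 9206 genes in F344 rats with 6 of the members, and 8584 in Brown Norway rats with all 7 measured members. The median signal of an array was 44.8 to 46.9 in F344 and 35.5 to 38.2 in Brown Norway rats, and levels are therefore not compared between strains. Of the 7 hepatocyte markers, 6 were on the array and all 6 were above the floor in every group. GAPDH probe sets at the 3′ end gave 1.31 to 7.33 times the signal of those at the 5′ end, a ratio that reports on RNA quality, in F344 and 0.774 to 0.944 in Brown Norway rats. In 2 Brown Norway controls, replicate 2 of 4 months and replicate 2 of 24 months, 4.79% and 4.03% of the tested genes were at least 2-fold away from the group's other rats, the 2 highest shares among the 34 arrays, and the values of the members that these rats moved most are also given without both.

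In F344 livers 2 of the members changed with age by the test over all 4 ages, Cdkn1a (adjusted p = 0.00219) and Rgn (adjusted p = 0.0201), where 6.01% of all tested genes passed. Cdkn1a was highest at 11 months and Rgn lowest at 24 months. Mdm2 had the same order of means as Cdkn1a with a smaller range, Ccng1 was also highest at 11 months, and Gadd45a was highest at 24 months.

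**Figure D1:**
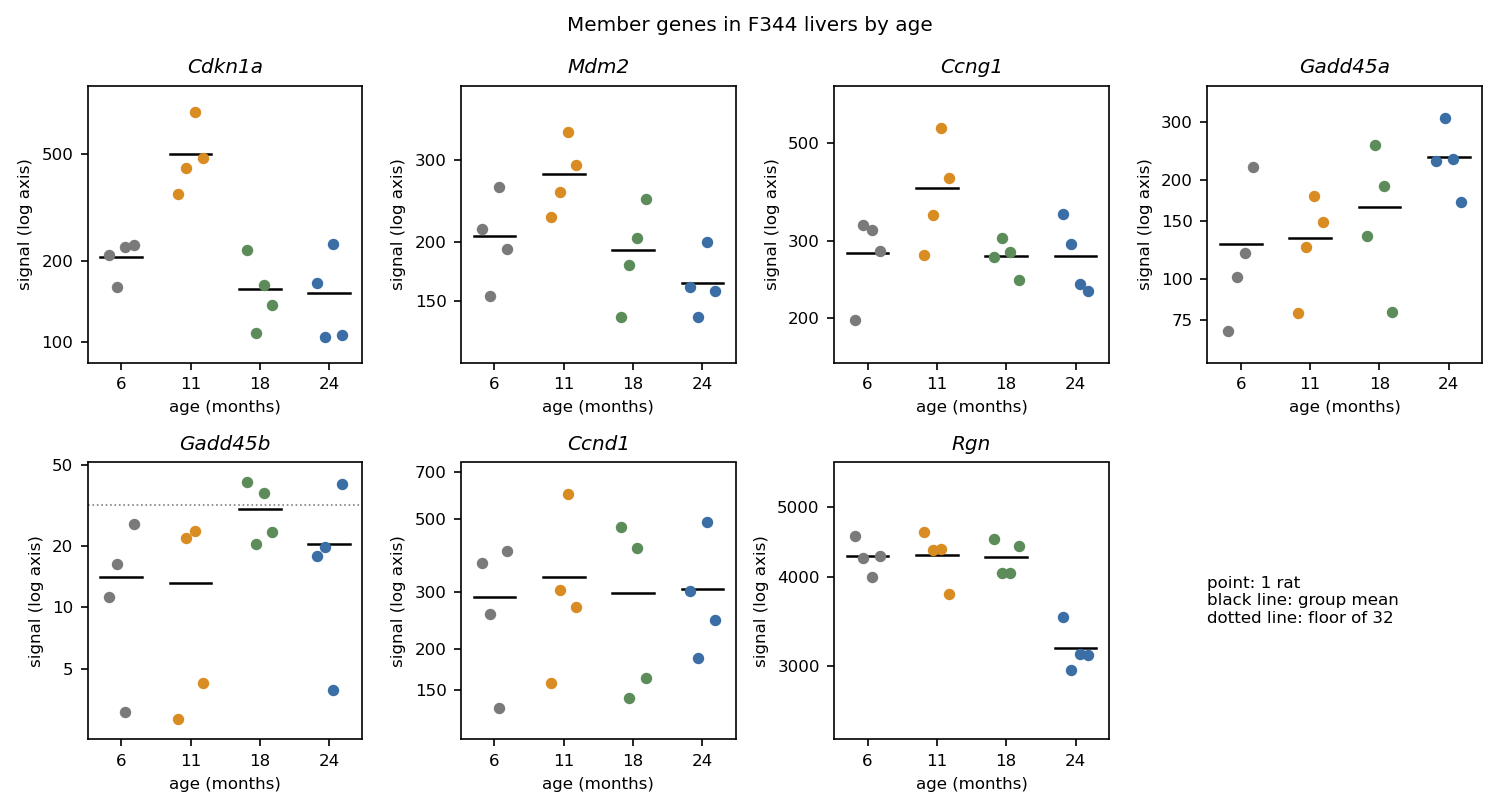
Signal of the 7 measured members in each F344 liver (vertical axes, logarithmic, each with its own range) against age in months. Points are rats, 4 at each age, black lines are group means and the dotted line is the floor of 32. All 4 rats of 11 months lie above all others for Cdkn1a, and all 4 rats of 24 months lie below all others for Rgn.

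Cdkn1a, whose product p21 stops the cell cycle in G1, had signals of 210.0, 159, 226 and 229 at 6 months, 354, 445, 716 and 484 at 11 months, 219.5, 108, 163 and 137 at 18 months and 165, 105, 232 and 106 at 24 months. Every rat of 11 months lay above the other 12 F344 rats, while the other 3 ages overlapped. The means were 206 ± 32.3, 499.6 ± 155, 157 ± 47.3 and 152 ± 60.3 in order of age (SD, n = 4 each). At 24 months the gene was 3.37-fold lower than at 11 months, with a log2 fold change of -1.75 (SE 0.27, adjusted p = 0.00129). At 18 months it was 3.18-fold lower than at 11 months (-1.67, SE 0.27, adjusted p = 0.0224). The difference at 11 against 6 months was 2.37-fold (1.24, SE 0.27, unadjusted p = 0.000288), which did not pass over all genes (adjusted p = 0.718), at ages between which 2.25% of all tested genes did not overlap. The fall at 24 against 11 months passed in all 29 alternative settings, with log2 fold changes between -2.04 and -1.24. That at 18 against 11 months did not pass in 5 of 29, among them without replicate 3 of 18 months and without replicate 2 or 3 of 11 months (adjusted p = 0.108, 0.0542 and 0.0720). Fewer cells of a type that carries an RNA and less of the RNA in each cell cannot be told apart in whole liver.

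The GAPDH ratio was above 2.5 in 2 of the 4 rats of 11 months, replicates 1 and 2 (7.33 and 3.74), whose Cdkn1a signals of 354 and 445 were the 2 lowest at that age. With all 5 F344 arrays above that ratio left out, Cdkn1a was still lower at 24 than at 11 months (log2 fold change -2.04, adjusted p = 0.0216), while the difference at 18 against 11 months no longer passed (-1.91, adjusted p = 0.113). The second probe set of Cdkn1a, which is dim and lay below the floor on 9 of 16 arrays, averaged 28.2 ± 4.65, 57.9 ± 27.2, 26.9 ± 14.6 and 23.5 ± 10.7 in order of age (SD, n = 4 each). It was also highest at 11 months, and its difference at 24 against 11 months did not pass (-0.74, SE 0.23, adjusted p = 0.0983). 

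Mdm2, the ligase that marks p53 for destruction, gave signals of 213, 154, 263 and 194 at 6 months, 226, 256, 345 and 292 at 11 months, 139, 179, 205 and 247 at 18 months and 161, 139, 200.1 and 157 at 24 months. The rats of 24 months all lay below those of 11 months, and the remaining pairs of ages overlapped. Its fall at 24 against 11 months was 1.70-fold, or -0.76 as a log2 fold change (SE 0.19, adjusted p = 0.0318). It did not pass in 9 of 29 alternative settings (adjusted p up to 0.0976), 6 of which left out 1 rat. With the mean of its probe sets in place of the brightest the fold was 1.40 (-0.49, adjusted p = 0.0570), a second probe set gave -0.64 (SE 0.28, adjusted p = 0.266), and the third was at or near the floor. At 11 against 6 months Mdm2 was 1.37-fold higher (0.45, SE 0.19, unadjusted p = 0.0330, adjusted p = 1).

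Ccng1, cyclin G1, which p53 induces, had signals of 197, 326, 317 and 284 at 6 months, 279, 343.99, 541 and 417 at 11 months, 275, 304, 282 and 244 at 18 months and 344.3, 295, 239 and 229.6 at 24 months. Its 11-month mean of 395 ± 112 (SD, n = 4) was the highest of the 4 ages, but the rats of that age overlapped with each other age. No comparison passed, and at 24 against 11 months the gene was 1.40-fold lower (-0.49, SE 0.20, adjusted p = 0.178).

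Gadd45a, a stress sensor that binds the replication factor PCNA, had its highest mean at 24 months instead. Its signals were 69.6, 101, 119.6 and 219 at 6 months, 78.6, 125, 179 and 149 at 11 months, 135, 256, 191 and 79.3 at 18 months and 227, 308, 231 and 171 at 24 months. The group means stood at 127, 133, 165 and 234 in order of age, with overlap between each pair of ages. At 24 against 6 months it was 1.97-fold higher (log2 fold change 0.98, SE 0.36, unadjusted p = 0.0163), which did not pass (adjusted p = 0.126) except without replicate 4 of 6 months (1.28, adjusted p = 0.0422). Gadd45b, an early response relative of Gadd45a, was dim in this strain, between 2.81 and 41.3, above the floor on 3 of the 16 arrays, and so was not tested.

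**Figure D2:**
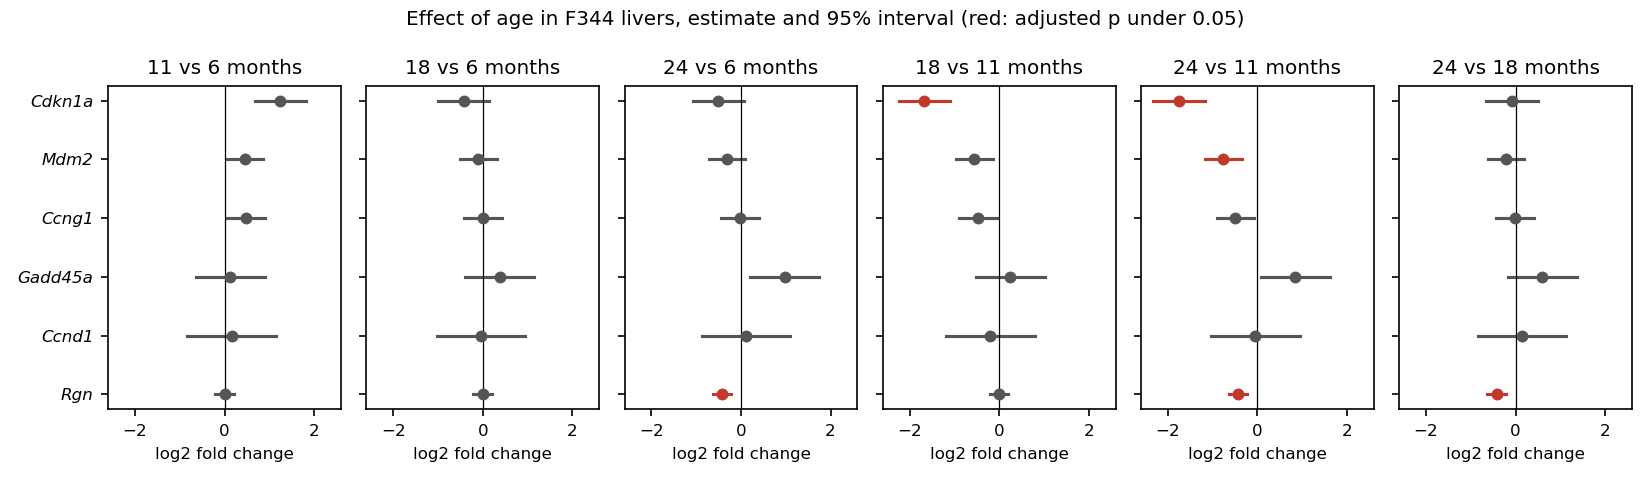
Log2 fold change (horizontal axes) with its 95% interval for the 6 members tested in F344 livers, for each pair of ages, the older over the younger. Red marks an adjusted p under 0.05, which Rgn reached in the 3 comparisons of 24 months, Cdkn1a in 2 and Mdm2 in 1.

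Rgn, the senescence marker protein, was an abundant RNA with little spread between rats. Its signals were 4561, 4251, 3999.7 and 4267 at 6 months, 4622, 4363, 4371 and 3778 at 11 months, 4512, 4043, 4051 and 4418 at 18 months and 3516, 2959.9, 3114 and 3106 at 24 months. The 4 rats of 24 months were all below the other 12, which overlapped with one another. The mean was 3174 ± 239 at 24 months, against 4256 ± 244 at 18, 4283 ± 358 at 11 and 4269 ± 229 at 6 months (SD, n = 4 each). The fall at 24 months was 1.34-fold against 18 months (log2 fold change -0.42, SE 0.10, adjusted p = 0.0354), 1.35-fold against 11 months (-0.43, adjusted p = 0.0175) and 1.35-fold against 6 months (-0.43, adjusted p = 0.0127). Its log2 fold change at 18 against 6 months was 0.00 (95% interval -0.21 to 0.20). Without the 5 arrays of high GAPDH ratio the sizes against 18, 11 and 6 months were -0.41, -0.36 and -0.43 and none passed (adjusted p = 0.0828, 0.0960 and 0.0515), and quantile normalization repeated within the strain likewise left none past the threshold (adjusted p = 0.108, 0.0545 and 0.0555). The same livers had lost much of the expression of 6 male-pattern genes such as Cyp2c11, the main male-specific P450: 6 of 6 fell at 24 against 6 months (median -4.52 on the log2 scale), and their part in the fall of Rgn was not tested. Gulo, which takes the next and last step of ascorbate synthesis after the lactonase, averaged 1259 ± 228 at 24 months and 2118 ± 197 at 6 months (SD, n = 4 each) and fell by 0.76 on the log2 scale (adjusted p = 0.0381). It was the 1 gene to pass in that comparison among 10 tested calcium and ascorbate genes other than Rgn.

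Ccnd1, cyclin D1, varied more between rats of 1 age than between ages. It had signals of 368, 256, 132 and 400.0 at 6 months, 157, 304, 598 and 269 at 11 months, 474, 142, 408 and 164 at 18 months and 301, 187, 492 and 245 at 24 months. All ages overlapped, the means lay between 289 and 332, and the log2 fold change at 24 against 6 months was 0.11 (95% interval -0.88 to 1.10). The variation between rats ran with that of Cdkn1a: as deviations from the age means over 16 arrays, the 2 genes had a Pearson r of 0.760 and a Spearman rho of 0.759 (permutation within ages, p = 0.00242 and 0.00293, adjusted over 15 pairs of members to 0.0363 and 0.0439). Without the 2 arrays farthest from the median of Ccnd1, r was 0.853. It was the 1 pair of 15 to pass. On the log2 signals themselves, with the differences between ages kept in, the pair did not pass (r = 0.418, rho = 0.441, permutation p = 0.106, adjusted p = 0.264). The next was Ccng1 with Gadd45a (r = 0.645, rho = 0.600, permutation p = 0.00964, adjusted p = 0.0723), and Cdkn1a with Mdm2 had r = 0.399 (rho = 0.400, permutation p = 0.151, adjusted p = 0.566). Of the 21 pairs in Brown Norway rats none passed, the smallest p being that of Ccnd1 with Gadd45a (r = -0.721, rho = -0.540, permutation p = 0.0315, adjusted p = 0.386).

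**Figure D3:**
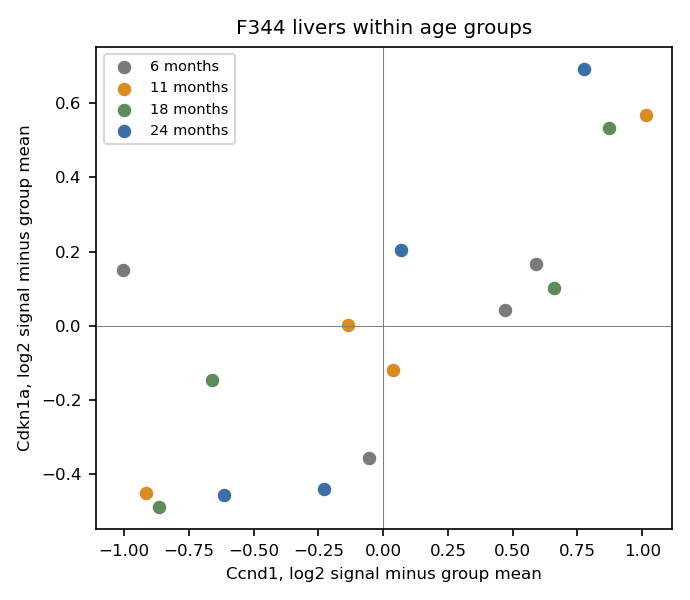
Cdkn1a (vertical) against Ccnd1 (horizontal) in the 16 F344 livers, both as log2 signal minus the mean of the rat's age group, coloured by age. The points rise together (r = 0.760), with 1 rat of 6 months at the left above the trend.

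By comparison, 1 of 6 members passed at 24 against 6 months, lower, where 7.4% of all tested genes passed (4.43% higher and 2.97% lower). At 24 against 11 months 3 of 6 passed, all lower, against 4.92% of genes (2.6% higher and 2.32% lower). At 24 against 18 months 1 of 6 passed, against 1.76% of genes, and at 18 against 11 months 1 of 6, against 0.293% of genes. The members that passed are also those whose groups did not overlap, which held for 15.9% of all tested genes at 24 against 6 months, 12.5% at 24 against 11, 7.92% at 24 against 18 and 4.84% at 18 against 11 months. None of the 6 passed at 18 against 6 months, where 1.08% of genes did, or at 11 against 6 months, where 0% did. For 11 against 6 months all 6 members had a positive log2 fold change, with a median of 0.30 beside 0.01 over all genes, and 3 of them had an unadjusted p under 0.05, as did 357 of the 9206 genes.

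Other genes of the pathway were followed through the same comparisons. Among 28 tested further p53 targets none passed at 24 against 11 months (median log2 fold change -0.02), or at 11 against 6 months (0.04), where no gene of the whole table did. At 11 against 6 months the smallest p belonged to Phlda3, an inhibitor of Akt signalling, which averaged 137 ± 43.3 at 11 months and 81.8 ± 15.2 at 6 months (SD, n = 4 each, log2 fold change 0.71, adjusted p = 1). At 24 against 11 months the smallest p was that of Ccng2, cyclin G2, with a log2 fold change of 0.86 (adjusted p = 0.0677), opposite in sign to Ccng1. Plk2, a kinase that p53 induces, averaged 177 ± 23.0 at 24 months and 286 ± 99.7 at 11 months (SD, n = 4 each, -0.64, adjusted p = 0.0718). The 1 target that passed at 18 against 11 months was Tnfrsf12a, a receptor of the TNF family, which was higher at 18 months (0.61, adjusted p = 0.0224) and close to the floor, at 50.3 ± 4.88 against 24.5 ± 8.71 (SD, n = 4 each).

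Cdkn1c, which encodes p57, the relative of p21, was the 1 gene to pass among 20 tested CDK inhibitors and other senescence markers at 18 and at 24 against 11 months. It averaged 52.3 ± 8.51 at 6 months, 99.4 ± 28.3 at 11 months, 40.8 ± 13.1 at 18 months and 54.6 ± 7.73 at 24 months (SD, n = 4 each). The log2 fold change was -1.27 at 18 against 11 months (adjusted p = 0.0277) and -0.82 at 24 against 11 months (adjusted p = 0.0464). At 24 against 6 months the 1 of 20 to pass was Il1b, an inflammatory cytokine of the senescence secretome, which was higher (0.75, adjusted p = 0.0311).

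Of 14 tested regulators of p53 only Chek1, the checkpoint kinase of replication stress, passed at 24 months, with 46.4 ± 5.05 against 30.4 ± 4.05 at 11 and 33.1 ± 5.64 at 6 months (SD, n = 4 each), values near the floor (log2 fold change 0.49 and 0.41, adjusted p = 0.0135 and 0.0250). Among 11 tested G1 cyclins, kinases and E2F genes, Myc (1.24, adjusted p = 0.0186) and Ccnd2 (0.79, adjusted p = 0.0424) were higher at 24 than at 6 months, and Cdk2 was lower at 24 than at 11 months (-0.47, adjusted p = 0.0313). None of the 19 tested S phase and mitosis genes passed in any pair of ages. In the BCL2 family of 12 tested genes Bcl2a1, a survival gene of leukocytes, was higher at 24 than at 6 months, at 184 ± 36.1 against 56.1 ± 10.8 (SD, n = 4 each, 1.71, adjusted p = 0.000106), and Bmf, a death gene, was lower (-0.88, adjusted p = 0.00475). Markers of white blood cells moved with these values: 4 of 8 tested Kupffer cell and macrophage markers and 3 of 6 T and NK cell markers were higher at 24 than at 6 months, while 0 of 6 hepatocyte markers passed, and the part of white blood cells in the gene lists was not tested. At 24 against 11 months, where 3 members passed, 4 of 6 T and NK cell, 2 of 2 neutrophil, 1 of 1 B and plasma cell and 1 of 2 cholangiocyte markers were higher, 0 of 8 Kupffer cell markers passed and 0 of 6 hepatocyte markers passed. Their part in the values of Cdkn1a, Mdm2 and Rgn was not tested. The summed signal of the 8 Kupffer cell markers was 4595 to 6902 at 24 months, 4594 to 6420 at 18, 3438 to 5796 at 11 and 2805 to 3960 at 6 months.

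Clock genes were set beside Cdkn1a. Of 14 tested, 3 were higher at 18 than at 11 months, Dbp (1.61, adjusted p = 0.0224), Nr1d1 (1.61, adjusted p = 0.0225) and Nr1d2 (1.26, adjusted p = 0.0325), and Npas2 was lower (-1.09, adjusted p = 0.0446). The median of the 14 in that comparison was -0.06, with 7 of them positive and 11 at an unadjusted p under 0.05, so a median says little of this list. At 24 against 11 months none of the 14 passed (median -0.06), and at 24 against 18 months 2 were higher and 4 lower. The log2 fold change of Cdkn1a at 24 against 18 months was -0.08. The labels give no time of day, and the part of the clock in the Cdkn1a values was not tested. Of 18 tested glucocorticoid and fasting genes none passed at 11 against 6 months, where 0 had a positive log2 fold change (median -0.33). None passed at 18 against 11 months, where 14 of the 18 were positive (median 0.42). At 24 against 6 months 4 were lower and 0 higher. The part of these signals in the Cdkn1a values was not tested either.

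In undosed Brown Norway livers none of the 7 members passed at 24 against 4 months (0.245% of all tested genes passed), at 24 against 12 months (0.0233%), at 12 against 4 months (0%) or over all 3 ages (0.0815%). At 24 against 4 months 1000 genes and 1 member, Ccng1, had an unadjusted p under 0.05. The median log2 fold change of the 7 was 0.69 at 24 against 4 months and 1.19 at 24 against 12 months, beside 0.00 and 0.02 over all genes, and 6 of the 7 were positive in both. Without both rats that stood apart the medians of the 7 were 0.41 and 0.38.

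**Figure D4:**
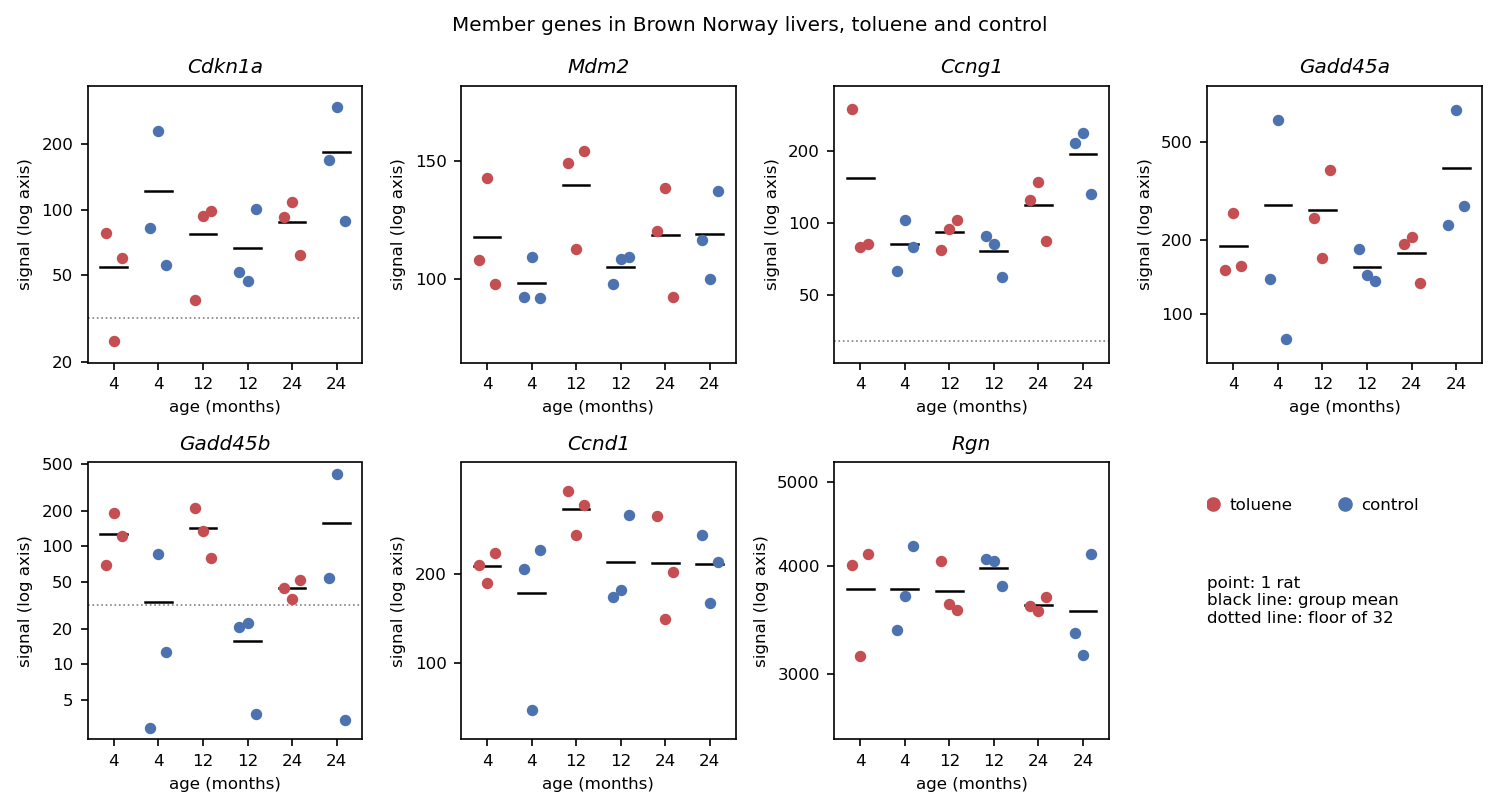
Signal of the 7 measured members in each Brown Norway liver (vertical axes, logarithmic, each with its own range) against age in months, toluene in red left of control in blue. Points are rats, 3 in each group, black lines are group means and the dotted line is the floor of 32. Gadd45b is above the floor in all 9 dosed rats and in 3 of the 9 controls.

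Ccng1 came nearest to a difference with age in the controls. Its signals were 217, 238 and 132 at 24 months, 88.6, 82.0 and 59.2 at 12 months and 63.2, 103 and 79.6 at 4 months. All 3 old rats lay above all 6 younger controls. The gene was 2.36-fold higher at 24 than at 4 months (log2 fold change 1.24, SE 0.41, unadjusted p = 0.00838, adjusted p = 0.220) and 2.51-fold higher than at 12 months (1.33, SE 0.41, adjusted p = 0.190). For comparison, 13.7% and 17.9% of all tested genes did not overlap between those ages. Its size hardly moved without replicate 2 of both ages (1.26, adjusted p = 0.334).

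Cdkn1a in the controls was 169, 295 and 89.1 at 24 months, 51.7, 47.4 and 101 at 12 months and 82.1, 229 and 55.6 at 4 months. Replicate 2 held the highest value at both 24 and 4 months, and the 3 ages overlapped. Its log2 fold change was 0.69 (SE 0.55) at 24 against 4 months and 1.39 (SE 0.55, adjusted p = 0.281) at 24 against 12 months. Without both replicate 2 rats these were 0.86 and 0.97. Gadd45a had its 2 highest control values in the same rats, at 229, 680.3 and 276 at 24 months, 184, 144 and 136 at 12 months and 138, 619 and 79.0 at 4 months. The old rats lay above those of 12 months (1.19, SE 0.58, adjusted p = 0.355), where 17.9% of all tested genes did not overlap. The size was 0.72 without both replicate 2 rats (adjusted p = 0.368). Against 4 months the size was 0.89 with all rats (adjusted p = 0.630) and 1.27 without both rats (adjusted p = 0.165).

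Mdm2, Ccnd1 and Rgn had smaller differences with age in the controls. The brightest probe set of Mdm2 was 115, 100.1 and 136 at 24 months, 98.3, 107 and 108 at 12 months and 94.2, 108 and 93.8 at 4 months, with overlap throughout (0.24 at 24 against 4 months, and 0.41 without both replicate 2 rats). Its other 2 probe sets were higher in every rat of 24 than of 4 months, where 13.7% of all tested genes did not overlap. Neither passed. One was 65.9, 50.7 and 62.4 at 24 months and 36.9, 35.1 and 44.6 at 4 months (log2 fold change 0.62, SE 0.20, adjusted p = 0.259). The other was 92.7, 86.1 and 95.7 at 24 months and 56.5, 85.2 and 65.7 at 4 months (0.42, SE 0.25, adjusted p = 0.624). Ccnd1 was 271, 159 and 219 at 24 months, 167, 177 and 314 at 12 months and 208, 69.3 and 239.7 at 4 months. Rgn was 3341, 3153 and 4132 at 24 months, 4076, 4052 and 3792 at 12 months and 3374, 3694 and 4217 at 4 months, and its log2 fold change at 24 against 4 months was -0.09 (95% interval -0.37 to 0.19). Of 27 tested further p53 targets 1 passed at 24 against 4 months, Gls2, a mitochondrial glutaminase, at 599 ± 269.6 against 1361 ± 84.6 (SD, n = 3 each, log2 fold change -1.27, adjusted p = 0.0430). No gene of the lists of p53 regulators, CDK inhibitors and senescence markers, G1, S phase and mitosis, or BCL2 genes passed in that comparison. Of 8 Kupffer cell markers 2 were higher at 24 than at 4 months, with a summed signal of 3752 to 7460 at 24 and 1932 to 2414 at 4 months, while 0 of 6 hepatocyte markers passed. The part of these cells in the values of the members was not tested.

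The 2 controls that stood apart did so in the growth arrest genes as well. Replicate 2 of 24 months differed by at least 2-fold from its group's other rats in 3 of 7 members, and replicate 2 of 4 months in 4 of 7. Against the mean of the other 2 rats, Gadd45a was higher by 1.44 in the 24-month rat and by 2.57 in the 4-month rat on the log2 scale, Cdkn1a by 1.26 and 1.76, and Gadd45b by 3.31 and 1.42. Ccnd1 was lower, with deviations of -0.61 and -1.69. Over all tested genes 346 were at least 2-fold away in the 24-month rat and 411 in the 4-month rat, and 146 of these were shared in the same direction, 42.2% and 35.5% of the 2 lists. In each of the 2 rats 10 of 24 tested immediate early and stress genes were at least 2-fold higher. Of 19 tested glucocorticoid and fasting genes, 11 were in the 24-month rat and 8 in the 4-month rat.

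Genes picked after their values were seen show the pattern. Gadd45g, the third gene of the Gadd45 family, was 49.4, 629.8 and 74.1 in the 24-month controls and 36.5, 463 and 32.6 in those of 4 months. Igfbp1, an insulin-repressed binding protein of hepatocytes, was 1082, 4845 and 852 at 24 months and 283, 2642 and 333 at 4 months. Sgk1, a glucocorticoid-induced kinase, was 328, 979 and 252 at 24 months and 199, 1060.2 and 205 at 4 months. In each gene replicate 2 was the highest of its group. Over all 18 Brown Norway arrays the genes most like Gadd45a were Myc (r = 0.925, rho = 0.878), Enc1 (r = 0.878, rho = 0.808) and Sgk1 (r = 0.874, rho = 0.748). These values share the array, and they were not computed without the 2 rats that stood apart.

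**Figure D5:**
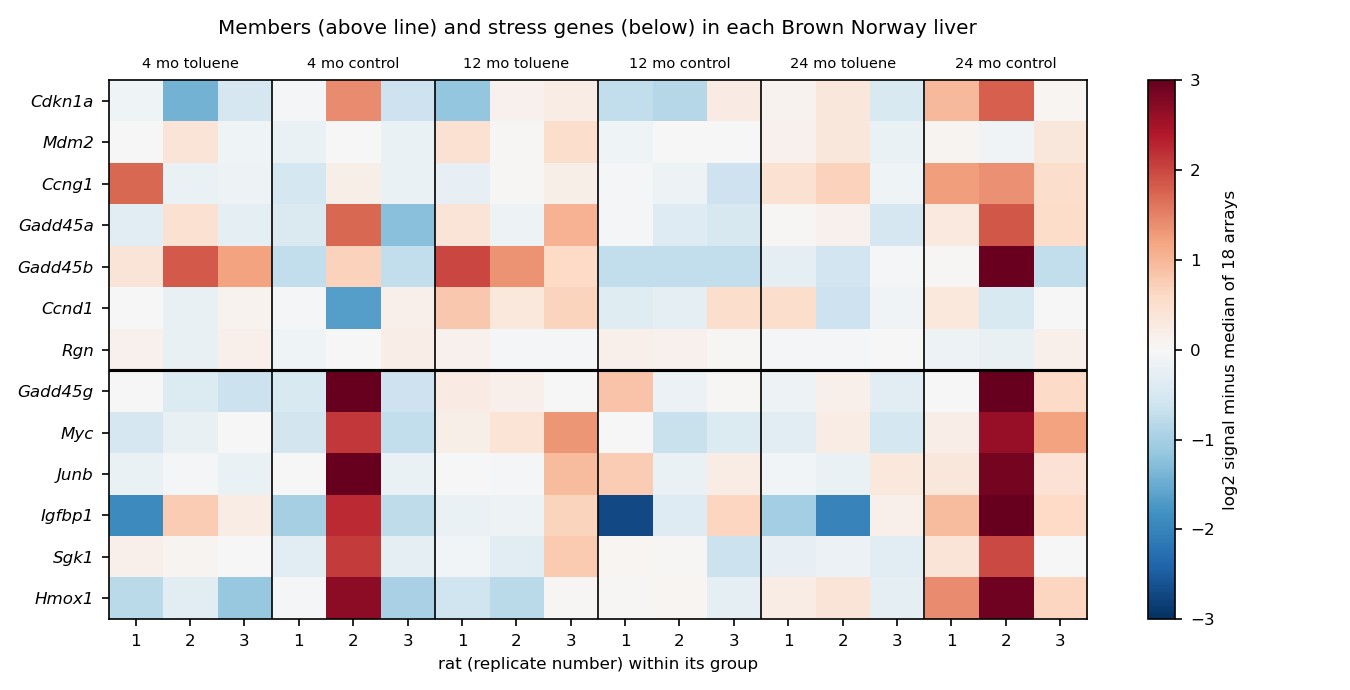
Log2 signal, floored at 32, minus the median of the 18 Brown Norway arrays (colour, from blue for lower to red for higher) for the 7 members above the line and 6 genes picked after their values were seen below it. Columns are rats within their groups, toluene left of control at each age. Replicate 2 of the 4-month and of the 24-month controls is red for Cdkn1a, Gadd45a, Gadd45b and the 6 lower genes.

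Toluene changed none of the 7 members by the test at 4 months (0.0233% of all tested genes passed), 12 months (0.0349%) or 24 months (0.0582%), or as the mean of the 3 ages (0.0699%). Across the toluene groups none passed at 12 against 4 months (0%), 24 against 4 months (0.268%) or 24 against 12 months (0.0932%). None of the 7 passed for the difference of the toluene effect at 24 months from that at 4 months either (0.0116%). At an unadjusted p under 0.05 there were 396 genes at 12 months, 2 of them members.

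Gadd45b had the widest difference with dosing. At 4 months it was 69.1, 191 and 122 in dosed rats and 2.88, 85.4 and 12.6 in controls, where 1 control, replicate 2, overlapped with the dosed rats. At 12 months it was 212, 135 and 80.2 in dosed rats and 20.8, 22.5 and 3.73 in controls, with no overlap and all controls below the floor. At 24 months it was 44.1, 35.8 and 52.0 in dosed rats and 54.1, 412 and 3.36 in controls, which enclosed the dosed rats. At 12 months the gene was thus at least 4.12-fold higher in dosed rats (log2 fold change 2.04 on floored values, SE 0.70, unadjusted p = 0.0106, adjusted p = 0.922), at an age where 8.33% of all tested genes did not overlap. The effect averaged over the 3 ages was 0.80 (SE 0.41, adjusted p = 0.932). With both controls that stood apart left out it was 1.33 (SE 0.23, adjusted p = 0.0586), still short of the threshold. Those 2 rats, left out after the data were seen, held the 2 highest control values, so their removal raises the estimate. The remaining controls of 4 and 12 months were all raised to the floor and so had no spread, which lowers the SE. By age the effect without both rats was 1.87 at 4, 2.04 at 12 and 0.06 at 24 months. The effect at 24 minus that at 4 months was -2.44 with all rats (SE 0.99, unadjusted p = 0.0264, adjusted p = 0.967) and -1.81 without both (adjusted p = 0.616). Among dosed rats the 3 of 24 months all lay below those of 12 months (-1.60, SE 0.70, adjusted p = 1) and of 4 months (-1.43, SE 0.70, adjusted p = 0.965), where 8.64% and 15.9% of all tested genes did not overlap.

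The other members gave smaller or less even differences. Mdm2 at 12 months was 149, 111 and 156 in dosed rats and 98.3, 107 and 108 in controls, a 1.31-fold difference with no overlap (log2 fold change 0.39, SE 0.18, unadjusted p = 0.0411, adjusted p = 0.922). It was 107, 142 and 98.4 in dosed rats and 94.2, 108 and 93.8 in controls at 4 months, and 118, 137 and 93.9 in dosed rats and 115, 100.1 and 136 in controls at 24 months. These are values of its brightest probe set. In each of its other 2 probe sets dosed rats and controls overlapped at 12 months (0.55 and 0.64). At 4 months all dosed rats lay above all controls in both (0.57 and 0.49), without passing, where 8.46% of all tested genes did not overlap. The sizes at 24 months were -0.20 and -0.21. Ccnd1 at 12 months was 379, 269.6 and 341 in dosed rats and 167, 177 and 314 in controls (0.64, SE 0.40). At 4 months it was 214, 187 and 235 in dosed rats and 208, 69.3 and 239.7 in controls, and at 24 months 312, 140.4 and 202 in dosed rats and 271, 159 and 219 in controls. In this brightest probe set the groups overlapped at each age. In each of the other 2 probe sets of Ccnd1 all dosed rats lay above all controls at 12 months (0.69 and 0.66, adjusted p = 0.920 each). At that age 8.33% of all tested genes did not overlap.

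Cdkn1a was 78.3, 24.9 and 60.0 in dosed rats and 82.1, 229 and 55.6 in controls at 4 months. It was 38.4, 93.9 and 99.1 in dosed rats and 51.7, 47.4 and 101 in controls at 12 months, and 92.2, 108 and 61.9 in dosed rats and 169, 295 and 89.1 in controls at 24 months. The log2 fold changes were -0.93, 0.18 and -0.95 in order of age (SE 0.55 each), and at 4 and 24 months they were -0.35 and -0.53 without both rats that stood apart. Gadd45a was 151, 258 and 157 in dosed rats and 138, 619 and 79.0 in controls at 4 months, 245, 169 and 385 in dosed rats and 184, 144 and 136 in controls at 12 months, and 193, 206 and 134 in dosed rats and 229, 680.3 and 276 in controls at 24 months. All dosed rats of 24 months were below all controls of that age (-1.01, SE 0.58, adjusted p = 0.540), as 17.9% of all genes did not overlap there, and the size was -0.53 without both rats. At 4 months the sign turned when both rats were left out (-0.05 with them and 0.81 without). Of 8 Kupffer cell markers 0 passed for toluene at 24 months (median -0.98). Their summed signal was 2314 to 3620 in dosed rats and 3752 to 7460 in controls, and their part in these values was not tested. Among dosed rats alone the log2 fold change at 24 against 4 months was -0.07 for Gadd45a, -0.11 for Ccng1 and 0.68 for Cdkn1a.

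Ccng1 was 300.4, 79.6 and 81.8 in dosed rats and 63.2, 103 and 79.6 in controls at 4 months, where 1 dosed rat, replicate 1, carried the group mean. It was 77.2, 94.1 and 103 in dosed rats and 88.6, 82.0 and 59.2 in controls at 12 months, and 125, 148 and 83.8 in dosed rats and 217, 238 and 132 in controls at 24 months. The effect of toluene at 24 minus that at 4 months was -1.35 (SE 0.58, unadjusted p = 0.0340, adjusted p = 0.967), and -1.36 without both controls that stood apart. Rgn did not differ beyond the spread of rats at any age. Its signals were 4008, 3149 and 4126 in dosed rats and 3374, 3694 and 4217 in controls at 4 months, 4058, 3617 and 3552 in dosed rats and 4076, 4052 and 3792 in controls at 12 months, and 3589.7, 3542 and 3682 in dosed rats and 3341, 3153 and 4132 in controls at 24 months. Averaged over the ages its log2 fold change was -0.02 (95% interval -0.18 to 0.14). In the lists of further p53 targets, p53 regulators, CDK inhibitors and senescence markers, G1, S phase and mitosis, and BCL2 genes, 0 genes passed for toluene at each of the 3 ages, and the smallest p at 12 months among 27 further p53 targets was that of Ephx1, microsomal epoxide hydrolase (0.53, adjusted p = 0.922).

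The effect of old age was then compared between strains as its log2 fold change in F344 rats, 24 against 6 months, minus that in undosed Brown Norway rats, 24 against 4 months. The youngest ages differ, and strain cannot be told apart from supplier and housing. None of the 6 members tested in both strains passed, where 1.27% of 7956 genes did. The widest differences were those of Ccng1 (-1.25, SE 0.46, unadjusted p = 0.00593, adjusted p = 0.196), with effects of -0.01 in F344 and 1.24 in Brown Norway rats, and of Cdkn1a (-1.20, SE 0.61, adjusted p = 0.519), with effects of -0.51 and 0.69. Rgn had effects of -0.43 and -0.09 (difference -0.34, SE 0.16, unadjusted p = 0.0372, adjusted p = 0.456). Its effect was thus not shown to differ between the strains. Mdm2 had effects of -0.31 and 0.24 (difference -0.55, SE 0.26, unadjusted p = 0.0362, adjusted p = 0.452). Gadd45a was alike in the estimates, at 0.98 and 0.89, with a wide interval of the difference (-1.25 to 1.43). Without both controls that stood apart the Brown Norway effects were 1.26 for Ccng1, 0.86 for Cdkn1a, 0.41 for Mdm2, 1.27 for Gadd45a and -0.02 for Rgn.

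Over the 16 F344 arrays, each member that passed was set beside the tested genes with the highest correlation to it, a description that shares the age groups and the arrays. Nearest to Cdkn1a were Aldh1l1, a folate dehydrogenase (r = 0.886), Parp10, an ADP-ribosyltransferase (r = 0.850), and Dkc1, the pseudouridine synthase dyskerin (r = 0.832). Aldh1l1 averaged 1554 ± 260 at 6 months, 2102 ± 321 at 11, 1350 ± 235 at 18 and 1245 ± 232 at 24 months (SD, n = 4 each), so it too was highest at 11 months. Nearest to Mdm2 were Lzts2 (r = 0.833), Ggn (r = 0.816) and Srxn1, the antioxidant enzyme sulfiredoxin (r = 0.815), of which Lzts2 and Ggn lay near the floor. Nearest to Rgn were Hao1, glycolate oxidase (r = 0.930, rho = 0.900), Cyp2c11 (r = 0.929, rho = 0.776) and Sult1e1, estrogen sulfotransferase (r = 0.928, rho = 0.653). Hao1 averaged 1353 ± 58.7 at 24 months and 2037 ± 145 at 6 months (SD, n = 4 each).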

How the data were processed

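Total RNA of the livers was extracted with TriReagent, cleaned on a column and hybridised to Affymetrix arrays, per the labels' protocols. What the authors deposited is an intensity for each probe set on a linear scale, 1 column for each animal. MAS5 and RMA are named in the submitters' processing notes without a role, an order or a version, and how the authors scaled the arrays is not given in the sources used here. The table has 24946 probe sets, 23324 with values in each strain. A single gene symbol was given for 17584, several for 393 and none for 6916, and 53 are array controls. Columns of single samples not used numbered 0.

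Groups follow the labels, and replicates were numbered in table order. Genes took the probe set of highest mean signal in the strain, the floor of 32 and log2, and were fitted with limma 3.58.1 in R 4.3.3, a mean for each group within the strain, with Benjamini-Hochberg adjustment over all tested genes. Strain differences used the 2 estimates with their standard errors and a normal approximation. Correlations used deviations from group means with 1e+05 permutations within groups (SciPy 1.17.1). The p-values rest on separate animals, and the number of arrays limits the precision.

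Members and lists were chosen with earlier results of these data known. Named are the members, up to 4 genes of smallest p of each list, genes of some counts of 5 or fewer and the 3 genes most like each passing member. Some small counts of clock, fasting and cell marker genes are given without names. The fit was tested on simulated data. Alternatives changed the probe sets, the filter, the floor, the scaling, the variance model, array weights, the GAPDH ratio and the samples, including each array left out in turn.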

Additional observations from a re-analysis of the deposited data

How the results depend on the processing

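Counts of members passing were recomputed under 641 alternative values for 22 results. Of these 610 stayed within 1.5 times the count first given and 31 moved, and 15 results never moved. All 15 had a count of 0, so their steadiness says little. Each result with a count above 0 moved under at least 1 alternative. At 24 against 6 months the 1 member became 0 with a 2-fold minimum, with quantile normalization repeated and without the 5 arrays of GAPDH ratio above 2.5, and single rats left out gave 1 to 2. At 24 against 11 months the 3 became 1 with a 2-fold minimum, and 1 to 3 with single rats left out (1 without replicate 2 or 4 of 24 months or replicate 3 of 11 months). At 24 against 18 months the 1 became 0 with a 2-fold minimum, with repeated quantile normalization, with a floor of 8, with only the groups compared and without those 5 arrays, and 0 to 1 with single rats left out. At 18 against 11 months the 1 became 0 with only the groups compared and without those 5 arrays, and 0 to 1 with single rats left out. Over all F344 ages the 2 became 1 with repeated quantile normalization and without those 5 arrays, and 1 to 2 with single rats left out. The difference between the strains gave 0 to 1, the 1 being without replicate 1 of the 4-month dosed rats. With age means kept, 3 F344 pairs of members passed in place of 1 (Ccng1 with Cdkn1a, Cdkn1a with Mdm2 and Gadd45a with Rgn), and Ccnd1 with Cdkn1a was not among them. The causes were not tested. No paired analysis was possible because the labels give no replicate numbers that groups share. Groups of 3 or 4 animals limit what could pass, and Gadd45b and the dim probe sets lay near or below the floor, where order is not measured. Brown Norway results of Cdkn1a, Gadd45a and Gadd45b rest in part on 2 control rats, whose removal was added after the data had been seen.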
